A study of Mus musculus with 6 samples.

Results

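Gabrg1, Gabrg3, Gabrd, Gabre and Gabrq encode the gamma1, gamma3, delta, epsilon and theta subunits of the GABA-A receptor. These 5 genes are a subunit class taken by name, by a rule that uses no measured value, from the 49568 gene names that have a value in every sample. Another 11 genes of GABA-A subunits are used below only for comparison. Each sample held 15 neurons aspirated from the preBötzinger Complex (preBötC), the brainstem site of the respiratory rhythm, of 1 mouse at postnatal day 2, and the 6 samples came from 6 mice. All mice carried Dbx1CreERT2 and Rosa26tdTomato, and their dams received tamoxifen at embryonic day 9.5. Mice of both sexes were used, and the sex of the mouse behind each sample is not given in the sources used here. The 3 Dbx1 samples were of neurons with tdTomato fluorescence, which marks the progeny of cells that expressed Dbx1 when Cre was active. The 3 non-Dbx1 samples were of neuronal somata without fluorescence, so that this group is defined only by lack of the reporter and can hold several kinds of neuron as well as Dbx1-derived neurons that did not recombine. A lower level in a sample of 15 neurons can come from fewer neurons with the transcript or from less transcript per neuron, which cannot be told apart.

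GABA-A receptors are chloride channels of 5 subunits around a central pore, which most often combine alpha and beta subunits with a single subunit of another class. A gamma subunit, with an alpha subunit, forms the benzodiazepine site, and receptors with gamma1 or gamma3 differ in their response to benzodiazepines. Delta is found in receptors outside synapses that answer to ambient GABA and to neurosteroids, best known from cerebellar granule cells, dentate gyrus and thalamus. Epsilon and theta are encoded side by side with alpha3 on the X chromosome and are known from the hypothalamus and from brainstem monoaminergic nuclei such as the locus coeruleus.

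The stretch that encodes part of the second transmembrane segment, which lines the pore, is among the most alike between subunits. It is printed here because the values below depend on reads of 35 to 50 bases being told apart between related genes. Each line is the coding strand of 10 codons, 30 bases, in exon 8 of a GENCODE vM21 transcript, and capitals mark the 10 positions with the same base in all 5 genes.
Gabrg1: ActaCggTttTgactaTGaCaACccTcagt
Gabrg3: AccaCggTgcTaaccaTGaCcACacTcagc
Gabrd: AccaCtgTgcTgacaaTGaCcACgcTcatg
Gabre: AgttCtgTgcTcaccaTGgCcACgcTgggt
Gabrq: ActtCgaTccTtgtccTGaCtACcaTcgac
On GRCm38 these windows lie at chr5:70774448-70774477, chr7:56729753-56729782, chr4:155386112-155386141 and chrX:72258250-72258279, all on the minus strand, and, for Gabrq, at chrX:72836806-72836835 on the plus strand. Gabrg3 and Gabrd were the most alike pair, with 24 of 30 bases equal, and Gabrd and Gabrq the least alike, with 14. Over whole transcripts the longest run that a member shared with any of the other 15 GABA-A subunit genes was 34 bases, between Gabrg3 and Gabra2. No member therefore shared 35 bases in a row with one of them. Of the 35-base words in a member's transcripts, the share found in transcripts of any other gene was 0 for Gabrg1 and Gabrd and 0.244%, 0.300% and 0.320% for Gabrg3, Gabre and Gabrq. No exon of the 5 genes overlapped an exon of another annotated gene on either strand.

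The values are RPKM, the reads on the exons of a gene scaled to its exon length and to all reads on genes in that sample. The samples had between 6464675 and 9432958 reads on genes, recovered from the steps between RPKM values. L2FC is the mean log2(RPKM + 1) of the Dbx1 samples minus that of the non-Dbx1 samples, a scale that understates the change of genes with low RPKM. It was tested with limma for the 17614 genes that were above 0 in 3 or more samples, and FDR values, adjusted by the Benjamini-Hochberg procedure over all of them, were called under 0.1. The exact two-sided permutation test of 3 samples against 3 cannot go below p = 0.10. All 8 neuronal markers were above RPKM 1 in all 6 samples, and their summed RPKM ranged from 1434 to 2244 in Dbx1 and from 1373 to 1867 in non-Dbx1 samples. Some markers of other cells were present too. The summed RPKM of 7 blood and vessel markers was 89.8 to 505 in Dbx1 and 733 to 13949 in non-Dbx1 samples, that of 10 oligodendrocyte markers 20.1 to 73.6 and 46.9 to 459, and that of 6 astrocyte markers 24.5 to 37.0 and 32.9 to 44.9. The highest blood and oligodendrocyte sums were in non-Dbx1 replicate 1. The 7 microglial markers summed to 0.202 to 29.2 and 14.6 to 44.4, with Tmem119 at 0 in all samples.

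Gabrg1, Gabrg3 and Gabrq were above 0 in every sample, whereas Gabrd was above 0 in 2 samples and Gabre in 1, at no more than 0.219 RPKM. None of the 3 members that could be tested passed the FDR threshold in limma, where the share of all tested genes called was 0% with the Dbx1 samples higher and 0.00568% (1 gene, D930028M14Rik) with the non-Dbx1 samples higher. At an unadjusted p under 0.05, 1 of the 3 members, Gabrq, was lower in the Dbx1 samples, beside 2.48% of all tested genes in that direction. No tested member had groups that did not overlap, beside 5.35% of all tested genes with all Dbx1 samples higher and 5.24% with all non-Dbx1 samples higher.

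**Figure D1:**
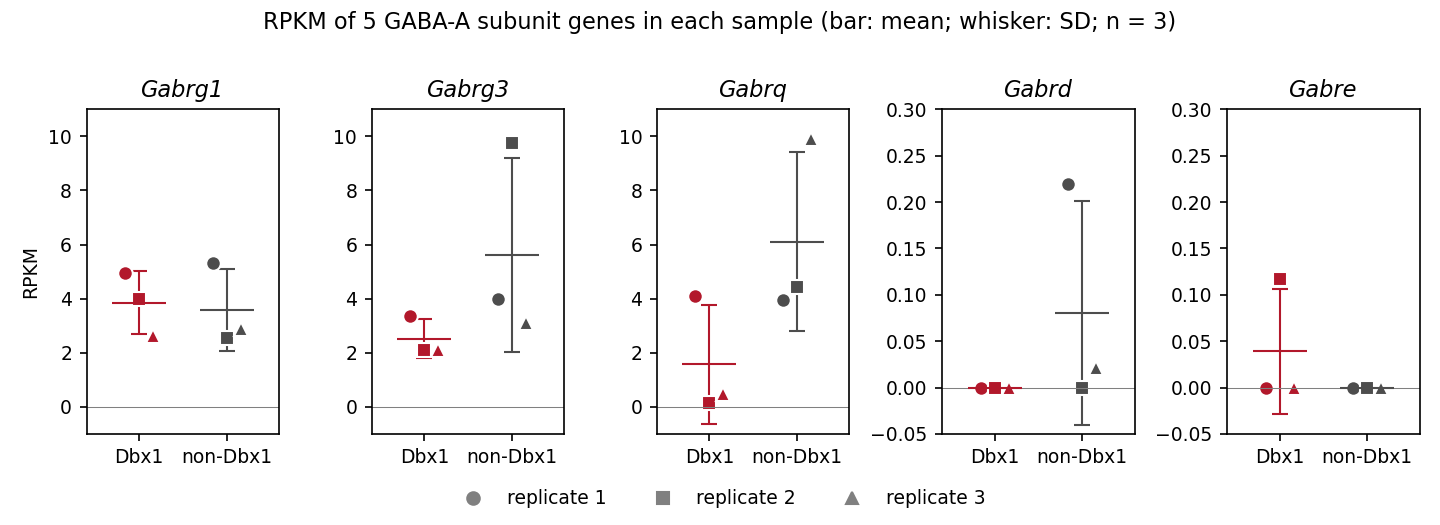
RPKM (vertical axes) of each member in the 3 Dbx1 samples (red) and the 3 non-Dbx1 samples (grey); points are samples, shapes are replicates, bars are means and whiskers are SD. The axes of Gabrd and Gabre end at 0.30 and those of the other members at 11, and in every panel the groups overlap.

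Gabrq, which encodes theta, showed the largest difference between group means among the members. In the Dbx1 samples its RPKM was 4.11, 0.134 and 0.484, from 194, 6 and 20 reads. Non-Dbx1 replicates 1 to 3 had 3.96, 4.43 and 9.91, from 152, 225 and 555 reads. Dbx1 replicates 2 and 3 were far below all the others, while Dbx1 replicate 1 lay above non-Dbx1 replicate 1, so that the groups overlapped. In the Dbx1 sample that made the groups overlap, the paper found En1, which marks another class of interneurons, and no Evx1. The paper found Evx1 in the other Dbx1 samples. It proposes that neurons expressing En1 may have been collected by accident in the sample without Evx1. The part of such neurons in the level of Gabrq was not tested. The exact 95% Poisson interval, which covers counting error only, was 0.0493 to 0.292 for Dbx1 replicate 2 and 3.55 to 4.73 for Dbx1 replicate 1, so that these samples of the same group differed by more than the counting of reads. In Dbx1 replicate 2 Gabrq exceeded 8.97% of the genes above 0, and in non-Dbx1 replicate 3 it exceeded 72.7%. The mean RPKM was 1.58 ± 2.20 (SD, n = 3) in Dbx1 and 6.10 ± 3.31 (SD, n = 3) in non-Dbx1 samples. Its L2FC was −1.70 (standard error 0.73), the 95% interval being −3.36 to −0.04 (limma, unadjusted p = 0.0458, FDR = 0.912). The exact permutation test, which was not adjusted and cannot go below 0.10, gave p = 0.20. In limma the difference did not pass the FDR threshold. Without Dbx1 replicate 2 the L2FC was −1.27 (limma, unadjusted p = 0.146), and without Dbx1 replicate 1 it was −2.36 (limma, unadjusted p = 0.0106). Leaving out any sample other than Dbx1 replicate 1 gave an unadjusted limma p between 0.0562 and 0.146. On recovered reads with voom, which weights each value by its expected precision, the L2FC was −3.09 with FDR = 0.876.

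Markers of other neurons were measured beside Gabrq because theta is known from monoaminergic cells. Of 5 genes listed for serotonergic neurons, Fev and Slc6a4, the lineage factor and the serotonin transporter, were at 0 in all samples. Tph2, the enzyme of brain serotonin synthesis, was at 3.36 in Dbx1 replicate 1, the Dbx1 sample with the highest Gabrq, and at 0 in the others. The sum of the 5 was 8.59, 0.874 and 3.67 in Dbx1 and 41.6, 11.3 and 43.4 in non-Dbx1 samples, and apart from Tph2 it was made of Gata3 and Htr1a. Gata3, a transcription factor also of other brainstem interneurons, had an L2FC of −2.84 (limma, unadjusted p = 0.00283, FDR = 0.724). Htr1a, a serotonin receptor also outside serotonergic neurons, had −2.32 (limma, unadjusted p = 0.00690, FDR = 0.801). The paper, which tested counts with DESeq2, reported Htr1a as differentially expressed and higher in non-Dbx1 neurons. Non-Dbx1 replicate 3, with the highest Gabrq, had the highest sum of 6 cholinergic and motor neuron markers, 157 against 3.14 to 27.8 in the other samples. Prph, an intermediate filament gene, gave 94.96 of the 157, Isl1 was at 13.3 there and at 0 elsewhere, Slc5a7 was higher in non-Dbx1 replicate 2 (10.9 against 7.91), and Mnx1, a motor neuron factor, was at 0 in replicate 3. The sum of 9 catecholaminergic markers was highest in non-Dbx1 replicate 2, at 8563 against at most 54.3 in the other samples. Npy, a peptide gene, gave 7800 of the 8563, and Dbh gave 339. Gabrq was at 4.43 in that sample, close to the 3.96 of non-Dbx1 replicate 1 and below the 9.91 of non-Dbx1 replicate 3. The part of these cells in the level of Gabrq was not tested.

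Gabrg3, which encodes gamma3, was detected with at least 186 reads in each sample. The 3 Dbx1 samples had RPKM of 3.35, 2.10 and 2.09, and the 3 non-Dbx1 samples had 3.997, 9.74 and 3.11. A single sample, non-Dbx1 replicate 2 with 1064 reads, stood above the other 5, which lay between 2.09 and 3.997. The group means were 2.51 ± 0.72 (SD, n = 3) and 5.62 ± 3.60 (SD, n = 3) RPKM. Its L2FC was −0.80 (standard error 0.56), the 95% interval being −2.09 to 0.49 (limma, unadjusted p = 0.191, FDR = 0.939), and the exact permutation test gave p = 0.20. Without non-Dbx1 replicate 2 it was −0.39, less than 1 standard error from 0. That sample also held noradrenergic transcripts. Its summed RPKM of 9 catecholaminergic markers was 8563, while the Dbx1 samples had 6.95 to 54.3 and the other non-Dbx1 samples 35.4 and 23.3. Npy, a peptide gene, gave 7800 of the 8563 in that sample. Dbh, which makes noradrenaline from dopamine, was at 339 there, at 11.8 in non-Dbx1 replicate 1 and at 0 in the other 4 samples, and Phox2a and Slc6a2, the noradrenaline transporter, were at 19.2 and 12.3 there and at 0 in the other 5. The part of these cells in the level of Gabrg3 was not tested.

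Gabrg1, which encodes gamma1, was present at like levels in both groups. With 217 to 468 reads a sample, its RPKM was 4.93, 3.99 and 2.61 for Dbx1 and 5.30, 2.56 and 2.87 for non-Dbx1 neurons. The highest and the lowest value both came from non-Dbx1 samples. The means were 3.85 ± 1.17 (SD, n = 3) and 3.57 ± 1.50 (SD, n = 3). Its L2FC was 0.10 (standard error 0.52, limma, unadjusted p = 0.851, FDR = 0.990), and its 95% interval of −1.09 to 1.30 leaves room for a difference in either direction. Leaving out Dbx1 replicate 1 turned it to −0.06, and leaving out non-Dbx1 replicate 2 instead also gave −0.06. Gabrg1 had the narrowest range of the 3 detected members, from 2.56 to 5.30 over all 6 samples, whereas Gabrg3 ranged from 2.09 to 9.74 and Gabrq from 0.134 to 9.91.

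Gabrd, which encodes delta, was at 0 in all Dbx1 samples and in non-Dbx1 replicate 2. It was at 0.219 RPKM, at least 7 reads, in non-Dbx1 replicate 1 and at 0.0215 RPKM, at least 1 read, in non-Dbx1 replicate 3. A level of 3 reads, taken as the limit that a count of 0 allows, corresponds to 0.0644 to 0.0939 RPKM for Gabrd, so that only non-Dbx1 replicate 1 was above it. Gabre, which encodes epsilon, was at 0 in 5 samples and at 0.117 RPKM in Dbx1 replicate 2. That value came from a number of reads that the steps did not fix, 4 if the exon length was near the annotated one. At that length 3 reads correspond to 0.0699 to 0.102 RPKM. Both genes were above 0 in fewer than 3 samples and did not enter the limma test. The exact permutation test gave p = 0.40 for Gabrd, the smallest p that its 2 samples above 0 allow. For Gabre the exact permutation test gave p = 1, the only p that 1 sample above 0 allows. The exact permutation test could therefore not tell the groups apart for either gene. No fold is given, since both group means were at or near the level of 3 reads. At this depth expression above these limits was not detectable in either group beyond single samples. Gabra6, the alpha subunit that delta joins in cerebellar granule cells, was at 0 in 5 samples and at 0.0510 RPKM in the other, whereas Gabra4, its usual alpha partner in forebrain, averaged 3.12 RPKM over the Dbx1 and 2.25 over the non-Dbx1 samples.

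By mean RPKM over all 6 samples, pooled over groups whose own orders differ, the order of the members was Gabrg3 at 4.07, Gabrq at 3.84, Gabrg1 at 3.71, Gabrd at 0.0401 and Gabre at 0.0195. The order of the first 3 held in neither group: in the Dbx1 samples Gabrg1 (3.85) came before Gabrg3 (2.51) and Gabrq (1.58), and in the non-Dbx1 samples Gabrq (6.10) came before Gabrg3 (5.62) and Gabrg1 (3.57). Neighbours were compared within samples by their difference in log2(RPKM + 1), with an exact two-sided sign-change test whose smallest p is 0.0312 and with Benjamini-Hochberg adjustment over the 4 pairs. Gabrg3 and Gabrq did not differ beyond their spread (mean difference 0.31 ± 1.06 SD, n = 6, exact p = 0.531, adjusted p = 0.75). Neither did Gabrq and Gabrg1 (mean difference −0.31 ± 1.30 SD, n = 6, exact p = 0.562, adjusted p = 0.75), where the log scale placed Gabrg1 above Gabrq although the mean RPKM did not. Gabrg1 was above Gabrd in 6 of 6 samples, by 2.14 ± 0.31 (SD, exact p = 0.0312, the smallest possible, adjusted p = 0.125). Since Gabrd was at 0 in 4 of these samples, the size of that difference is set by the pseudocount, and it was 4.87 with a pseudocount of 0.1. Between Gabrd and Gabre the mean difference was 0.03 ± 0.14 (SD, n = 6, exact p = 0.75, adjusted p = 0.75). Both were at 0 in Dbx1 replicates 1 and 3 and in non-Dbx1 replicate 2. The smallest p of the test was therefore out of reach, and it could not order these genes. The order within the first 3 also rests on the exon length. The length recovered from the authors' RPKM was 1.52 times the merged exon length of GENCODE vM21 for Gabrg1, 1.07 times for Gabrg3 and 1.11 times for Gabrq. For Gabrq it equalled the sum of distinct annotated exons, in which overlapping exons of different transcripts count more than once, whereas for Gabrg1 and Gabrg3 it was longer than that sum (11936 against 10912 and 12770 against 12153 bases), in an annotation release that is not known. With each exon base counted once, the mean RPKM was 5.63 for Gabrg1, 4.35 for Gabrg3 and 4.26 for Gabrq. A gene's length is the same in every sample, so that it does not change the ratio of RPKM between groups, although it shifts values of log2(RPKM + 1).

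The make-up of the members' summed RPKM differed between single samples of a group. Gabrq made up 33.2%, 2.11% and 9.33% of the sum of the 5 genes in Dbx1 and 29.4%, 26.5% and 62.3% in non-Dbx1 neurons. As with its RPKM, Dbx1 replicate 1 fell among the non-Dbx1 samples. Gabrg3 made up 27.0%, 33.1% and 40.3% for Dbx1, and 29.7%, 58.2% and 19.6% for non-Dbx1 neurons, where both the highest and the lowest share are found. Gabrg1 held 39.8%, 62.9% and 50.3% of the Dbx1 and 39.3%, 15.3% and 18.03% of the non-Dbx1 sums, so that the groups did not overlap, although non-Dbx1 replicate 1 came within 1 percentage point of Dbx1 replicate 1. The RPKM of Gabrg1 itself overlapped widely, and its share moves with the levels of Gabrq and Gabrg3. With merged exon lengths the Gabrg1 shares were 47.9%, 70.7% and 58.8% against 47.1%, 20.2% and 23.3%. Gabrd and Gabre held at most 1.84% in any sample. These shares are a description, with no test. The summed RPKM of the 5 members was 12.4, 6.35 and 5.19 for Dbx1 and 13.5, 16.7 and 15.9 for non-Dbx1 neurons. Gabrp, the pi subunit of epithelial tissues, was above 0 only in non-Dbx1 replicate 1, at 0.212 RPKM.

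**Figure D2:**
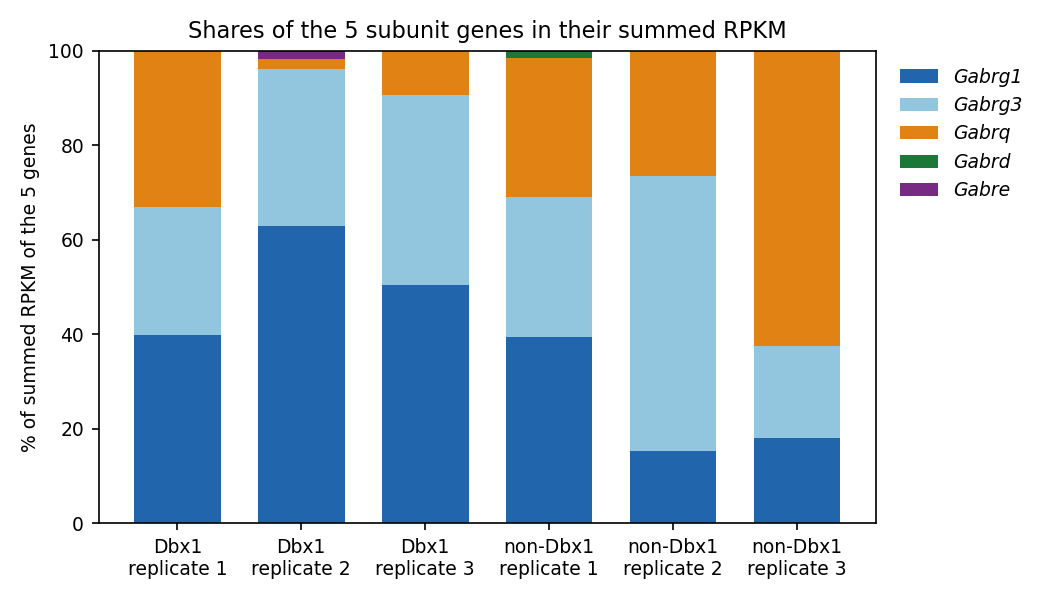
Share (percent, vertical axis) of each member in the summed RPKM of the 5 genes, for each of the 6 samples. Gabrg1 is the largest part of every Dbx1 bar and of non-Dbx1 replicate 1, Gabrg3 reaches 58.2% in non-Dbx1 replicate 2, and Gabrq is 62.3% in non-Dbx1 replicate 3 and 2.11% in Dbx1 replicate 2.

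Members share their chromosomal regions with alpha and beta genes. Gabrg1 (ENSMUSG00000001260, chr5:70751047-70842617, minus strand) lies with Gabra2, Gabra4 and Gabrb1 in 1.40 Mb, and Gabrg3 (ENSMUSG00000055026, chr7:56716465-57387188, minus strand) lies beside Gabra5. Gabre (ENSMUSG00000031340, chrX:72255999-72274803, minus strand) and Gabrq (ENSMUSG00000031344, chrX:72825178-72842602, plus strand) stand on either side of Gabra3, 550 kb apart. Gabrd (ENSMUSG00000029054, chr4:155384980-155398112, minus strand) has no subunit gene close to it on chromosome 4. The difference in log2(RPKM + 1) between a neighbour and the member of its cluster was computed for 5 pairs, chosen after the values were seen. Gabra5 exceeded Gabrg3 by 3.90, 4.46 and 4.05 for Dbx1 and by 2.19, 1.31 and 2.91 for non-Dbx1 neurons, with a gap of 20.5 kb between the genes. Gabrb1 exceeded Gabrg1 by 1.33, 1.92 and 2.18, and by 0.30, 0.71 and 1.06. In these pairs the groups did not overlap, and the exact permutation p was 0.10 for each, the smallest possible, and 0.25 after adjustment over the 5 pairs. The RPKM of Gabra5 and of Gabrb1 alone also had groups that did not overlap. Because the pairs were chosen after the values were seen, the p-values of the 5 pairs are a description, and no conclusion is drawn from them. Gabra3 exceeded Gabrq by 1.47, 2.54 and 2.72 in the Dbx1 samples. For non-Dbx1 neurons the difference was −0.48, 1.48 and 0.42, overlapping by a narrow margin (exact permutation p = 0.20, adjusted p = 0.333). For Gabra2 against Gabrg1 the exact permutation p was 0.30, and for Gabra4 against Gabrg1 it was 0.60. Gabra4 and Gabrb1 share exon bases on opposite strands, and the counting did not use strand, so reads from that overlap cannot be told apart. Gabra5 also shares exon bases with 1 other annotated gene, and the same limit holds there.

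**Figure D3:**
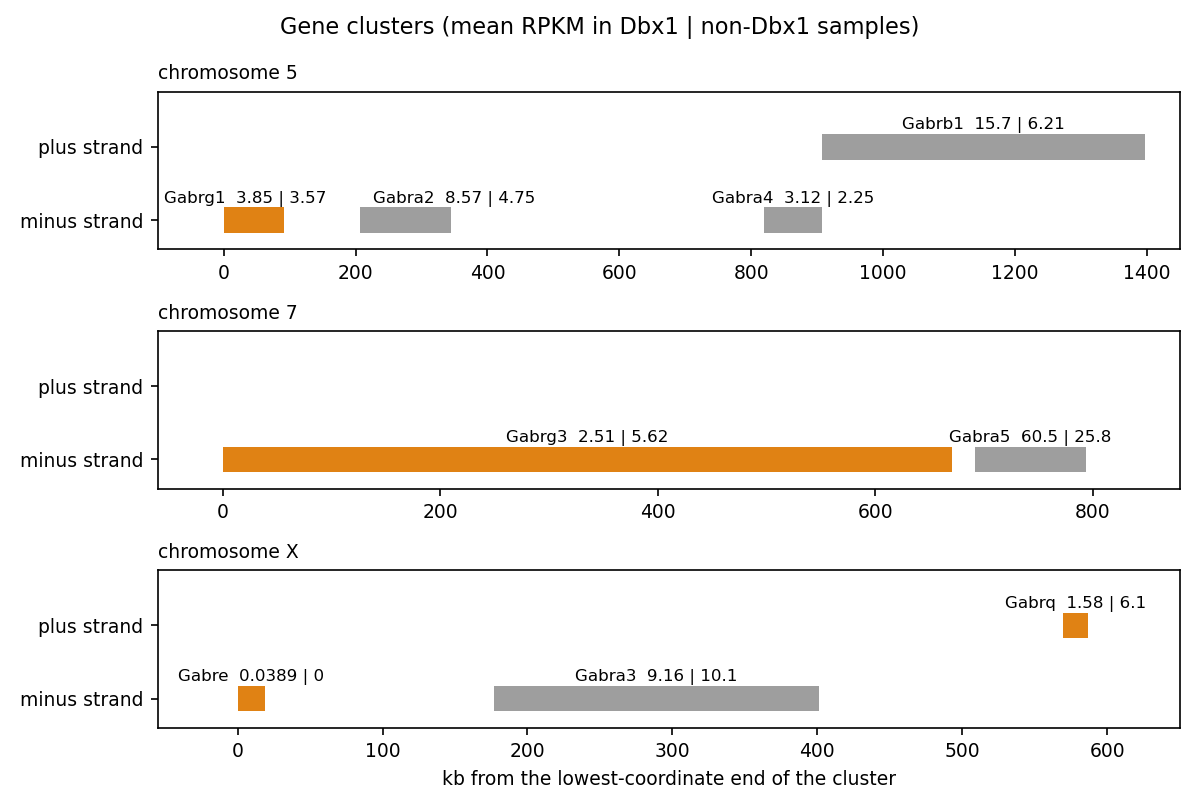
Positions of the members (orange) and of some alpha and beta genes (grey) on 3 chromosomes, as distance in kb from the lowest-coordinate end of each cluster, by strand, with mean RPKM in Dbx1 and non-Dbx1 samples after each name. The higher mean is in the Dbx1 samples for Gabrg1, Gabra2, Gabra4, Gabrb1, Gabra5 and Gabre, and in the non-Dbx1 samples for Gabrg3, Gabra3 and Gabrq. That of Gabre comes from 1 sample at 0.117 RPKM, and the L2FC of Gabra3, 0.07, has the other direction.

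**Figure D4:**
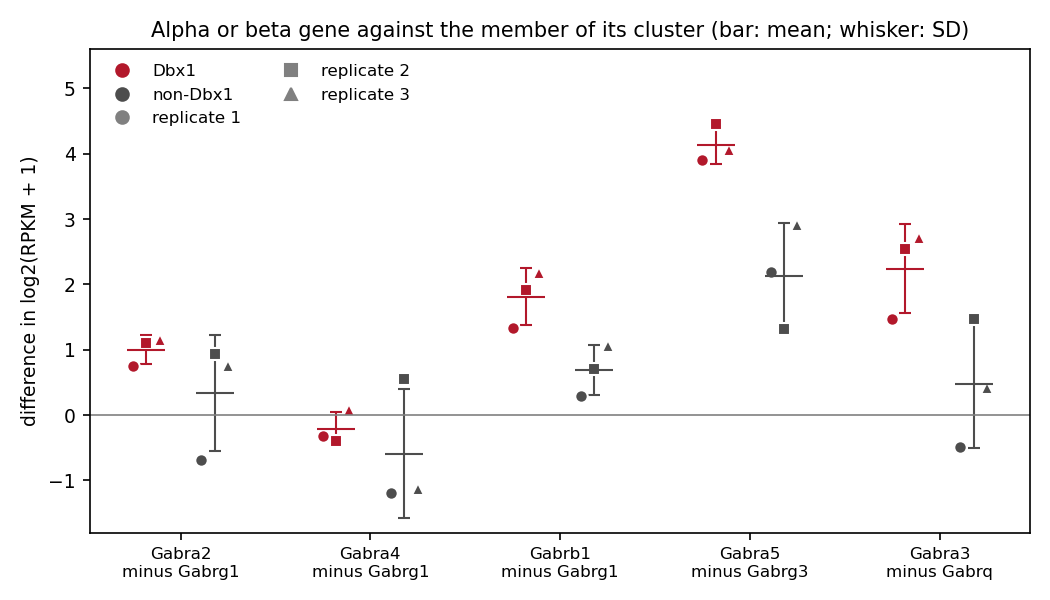
Difference in log2(RPKM + 1) between an alpha or beta gene and the member of its cluster (vertical axis) for 5 pairs, in Dbx1 (red) and non-Dbx1 samples (grey); points are samples, bars means and whiskers SD. Gabra5 minus Gabrg3 lies between 3.90 and 4.46 for Dbx1 and between 1.31 and 2.91 for non-Dbx1 neurons.

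Other subunit genes are given by their own values, and since they are only some of the alpha, beta and rho genes no count or median over them is given. Gabra5 (L2FC 1.20, limma FDR = 0.697) and Gabrb1 (L2FC 1.22, limma FDR = 0.787) were higher in the Dbx1 samples at an unadjusted p under 0.05, beside 2.73% of all tested genes in that direction, and neither passed the FDR threshold. The groups did not overlap for these genes or for Gabra2, beside 5.35% of all tested genes with all Dbx1 samples higher. Means of RPKM, Dbx1 first, were 60.5 and 25.8 for Gabra5, 15.7 and 6.21 for Gabrb1, 8.57 and 4.75 for Gabra2, 9.16 and 10.1 for Gabra3, and 1.74 and 1.85 for Gabrb2. For Gabra3 and Gabrb2 the L2FC, 0.07 and 0.28, had the other direction than the means. Of the rho genes Gabrr1 and Gabrr3 were at 0 in all samples, and Gabrr2 was at 1.35 in Dbx1 replicate 2, at 0.0543 in non-Dbx1 replicate 1 and at 0 in the other 4.

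**Figure D5:**
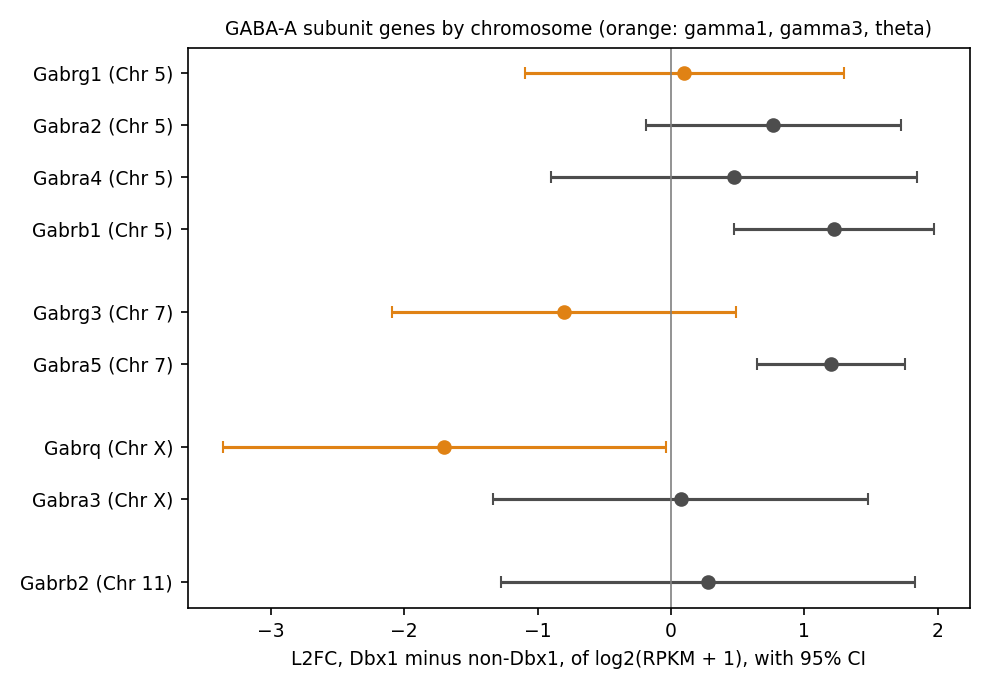
L2FC between Dbx1 and non-Dbx1 samples with its 95% interval (horizontal axis, limma) for 9 GABA-A subunit genes, ordered by chromosome. The interval of Gabrq, −3.36 to −0.04, lies just below 0, those of Gabrg1 and Gabrg3 include 0, and those of Gabra5 and Gabrb1 lie above 0.

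Transcripts of 18 genes whose proteins carry and anchor these receptors were all tested. Of these 9 had an L2FC above 0 and 9 below, with a median of −0.01, beside 8953 and 8661 of all 17614 tested genes. None passed the FDR threshold or an unadjusted p under 0.05 in limma. At that p, 2.73% of all tested genes were higher and 2.48% lower in the Dbx1 samples. At such shares short lists like those given here can hold no such gene, and their counts are a description. Plcl1, which binds GABARAP and beta subunits, had the largest absolute L2FC among them, at −0.73 (limma FDR = 0.947), with means of 2.72 RPKM for Dbx1 and 4.998 for non-Dbx1 neurons. Of 8 genes for GABA synthesis, packaging, uptake and breakdown, 3 had an L2FC above 0 and 5 below, with a median of −0.38, and none passed either limit. The largest absolute L2FC was that of Slc6a13, a GABA transporter known mainly from meninges and vessels, at −0.68 (limma FDR = 0.946). Neurosteroids, which act most strongly on receptors with delta, are made with the products of 7 listed genes for enzymes and cholesterol carriers. Of these 4 could be tested, and none passed either limit (median L2FC 0.19). Star, which carries cholesterol into mitochondria, had the largest absolute L2FC among those with a mean RPKM of at least 1, at −0.50 (limma FDR = 0.971), with 9.65 RPKM in non-Dbx1 replicate 1 and at most 1.89 elsewhere. Srd5a1, a 5-alpha-reductase, was at 1.69 to 14.0 RPKM, while Srd5a2 and Akr1c14 were at 0 in all samples.

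Profiles over the 6 samples were compared with those of the 13910 genes with a mean RPKM of at least 1, by the root mean square distance between values of log2(RPKM + 1) after each gene's own mean was subtracted. The nearest to Gabrg1 were Rabggta, Pknox1 and Slc29a4, at distances of 0.0889, 0.110 and 0.120, beside a root mean square of 0.336 for Gabrg1 itself. Nearest to Gabrg3 were Mrps30, Ehbp1l1 and Fam167a, at 0.162, 0.179 and 0.183, beside 0.605. Nearest to Gabrq were Zfp786, Hadh and Nrep, at 0.259, 0.263 and 0.292, beside 1.14. Nrep was at 140, 42.8 and 63.8 RPKM in Dbx1 and at 159, 180 and 257 in non-Dbx1 neurons, with Dbx1 replicates 2 and 3 again the lowest. With 6 samples and many genes compared, some genes lie this near any profile, and the distances are a description.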

How the data were processed

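Complementary DNA from each sample of 15 neurons was amplified, made into libraries with a Nextera kit that does not mark strand, and sequenced as single-end reads of 35 to 50 bases. The authors aligned reads to mm10 with TopHat2, sorted them with SAMtools, counted them on gene names with HTSeq without regard to strand, and deposited RPKM values computed with exon lengths from an Ensembl annotation, without scaling between samples. The release of that annotation is not given in the sources used here. The counts were not used here, since RPKM values are what was analysed; the authors tested counts with DESeq2, and limma on log2(RPKM + 1) took its place.

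Reads on genes per sample, and reads and exon length per gene, were recovered from the steps between RPKM values, within 0.001 reads of a whole number. The recovered gene reads summed to 99.7% of each sample's total. A recovered number of reads is a lower limit, since a multiple of it fits as well. For 13839 of the 27067 genes with reads, the length equalled the sum of distinct annotated exons. Intervals and floors of 3 reads cover counting error only, since amplified reads without molecular identifiers are not independent molecules. Positions and sequences came from GENCODE vM21 on GRCm38, the genome of mm10, by gene name.

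The 3 Dbx1 and 3 non-Dbx1 samples were compared with limma version 3.58.1 (lmFit, eBayes with trend) in R 4.3.3, and Python 3.11.15 was used for the rest, with pandas 2.3.3 and numpy 2.4.6. The fit was also run on simulated data with known changes, and the outcome is not given here. At an FDR under 0.1 the paper's DESeq2 test called, among others, Htr1a, Gata2 and Hif1a, which limma here did not call. The members and the gene lists were chosen with earlier results of these data known. All 5 members were named with every value, other GABA-A subunits by their means (some genes are not reported here), and from the other GABA-A lists the genes with an unadjusted p under 0.05 or, where there were none, the gene with the largest absolute L2FC and a mean RPKM of at least 1. D930028M14Rik and the individual neurosteroid genes at 0, with Srd5a1 beside them, were named after their values were seen. The replicate numbers of the labels do not pair samples: the mean correlation of deviations was −0.04 for the same number and 0.02 for other numbers, and each sample came from a different mouse. Alternatives were another pseudocount, 2 other filters, size factors, quantile normalization, no trend, a replicate block, voom on recovered reads, each sample left out and the ratio of group means.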

Additional observations from a re-analysis of the deposited data

How the results depend on the processing

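Gabrq stayed lower in the Dbx1 samples under all 15 alternatives run (L2FC −3.09 to −1.27, FDR 0.784 to 0.9996) and Gabrg3 under all 15 (−1.16 to −0.39), with neither passing the threshold. For Gabrg1 the L2FC went from −0.059 to 0.36 when samples were left out, turning direction without Dbx1 replicate 1 or without non-Dbx1 replicate 2. Gabrd and Gabre could be fitted only with genes above 0 in at least 1 sample (limma FDR = 0.784 and 0.815). The number of genes lower in the Dbx1 samples at the FDR threshold, 1 as reported, was 0 with a pseudocount of 0.1, with genes above 0 in at least 1 sample, with the replicate block and with voom, 3 without the trend, and 0 to 1 with samples left out. The number higher, 0 as reported with 480 at an unadjusted p under 0.05, was 0 to 1 with samples left out. With the replicate block the L2FC of Gabrq was −1.70 (limma FDR = 0.980), and the block changed no call on a member. In the order of levels, Gabrq minus Gabrg1 went from −0.67 to 0.053 and Gabrd minus Gabre from −0.026 to 0.063 when samples were left out, and the former was −1.21 in the Dbx1 samples alone and 0.59 in the non-Dbx1 samples alone. Gabrg3 minus Gabrq, 0.31 over all samples, was 0.76 in the Dbx1 samples alone and −0.14 in the non-Dbx1 samples alone. The merged exon length was added after seeing the data and changed no call on a pair. The cause of these changes was not tested. Depth limits Gabrd and Gabre, which were at or near the level of 3 reads.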
